A study of Mus musculus with 8 samples.

Results

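UDP-glucuronosyltransferases (UGTs) are enzymes of the endoplasmic reticulum that join a sugar to fat-soluble molecules. Of the 22052 genes in a table of mouse liver RNA, 10 are described here: Ugt1a1, Ugt1a6a, Ugt2a3, Ugt2b1, Ugt2b5, Ugt2b34, Ugt2b35, Ugt2b36, Ugt3a1 and Ugt3a2. They were taken by name from the Ugt1, Ugt2 and Ugt3 genes, and were chosen on sight of the same levels in the same knockout and control livers that are described below. Their values in that comparison are therefore a description, with no test. Another 10 UGT genes of the table serve for comparison.

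The livers came from 8 male mice of strain C57BL/6, aged 8 weeks, and all had received corn oil into the peritoneum. The 4 control mice carried floxed Zfp36l1 and Zfp36l2 alleles (Zfp36l1fl/fl/Zfp36l2fl/fl) and no Cre. The 4 double knockout mice (dKO) carried the same floxed alleles together with Alb-Cre, in which the promoter of the albumin gene drives the recombinase. That promoter is active in hepatocytes, and since it is also active in liver progenitors, Alb-Cre is known to recombine in bile duct cells too. Each library is 1 animal. The controls lack Alb-Cre as well as the deletion, so effects of the transgene and of the deletion cannot be told apart. The proteins ZFP36L1 and ZFP36L2 attach to AU-rich stretches of the 3′ untranslated region (3′ UTR) of messenger RNAs and speed their decay.

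In the best known UGT reaction, glucuronic acid is passed from UDP-glucuronic acid to a hydroxyl, carboxyl or amine group. The product, a glucuronide, dissolves in water and leaves in bile or urine, and hepatocytes carry out much of this work for bilirubin, steroids, bile acids and drugs. UGT1A transcripts are made by splicing alternative first exons to a common set of later exons, whereas UGT2B genes are separate copies. The human UGT3A enzymes use other sugars than glucuronic acid, N-acetylglucosamine for UGT3A1 and glucose or xylose for UGT3A2.

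Levels are normalised read counts, that is, reads per gene scaled by the authors with 1 factor per library, given as mean ± SD over 4 livers. Changes are dKO minus control on the scale of log2(value + 0.5), with their standard error (SE). The libraries held 15253827 to 19299556 reads in genes. The targeted Zfp36l1 stood at 1370.2 ± 194 (control) and 226 ± 27.6 (dKO), and Zfp36l2 at 1584 ± 393 and 796 ± 94.4 (limma adjusted p = 1.65e-08 and 0.000689). On the first principal component, with 74.5% of the variance, control 4 lay at -43.3, the other controls at -76.5 to -67.7 and the dKO livers at 57.5 to 68.9. Hepatocyte markers summed to 1395079 to 1536316 in controls and 1504468 to 1651042 in dKO livers, with 3 of 9 higher and 2 lower, and albumin was at 773160 ± 55865 and 824048 ± 26104. Markers of other cells moved with the groups: 7 of 7 bile duct markers, 7 of 8 of monocytes and macrophages, 6 of 6 of neutrophils, 5 of 7 of stellate cells and 2 of 6 endothelial markers were higher in dKO livers. Clec4g, of endothelial cells, and 2 of 5 T and B cell markers, Cd79a and Ms4a1, were lower. Endothelial markers summed to 4173 to 5058 in controls and 4758 to 6212 in dKO livers, and T and B cell markers to 22.9 to 49.4 and 34.2 to 43.2. Summed levels were 654 to 1554 against 8269 to 12567 for bile duct, 5107 to 8910 against 11635 to 16632 for macrophage, 75.0 to 347 against 618 to 928 for neutrophil and 3719 to 10936 against 18645 to 24881 for stellate cell markers. Control 4 had the highest sum of the controls for these 4 lists. Of 8 markers of kidney and intestine, other organs rich in UGTs, 4 had values. These summed to 2.05 to 5.72 in controls and 11.9 to 16.8 in dKO livers, and 1 of the 3 tested, Vil1, was higher. Vil1, at 1.66 ± 2.00 in controls and 8.59 ± 1.48 in dKO livers, made up most of the dKO sum. Umod, Lct and Slc22a12 had means of 2.22, 1.92 and 0.697 in dKO livers, all from few reads. The part of these shifts in the UGT values was not tested, and in whole liver fewer cells of a type and less RNA per cell cannot be told apart.

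All 10 genes had lower mean log2 values in dKO livers, by very unequal amounts, although the sign turned for Ugt2b34 after quantile normalization (0.13) and for Ugt1a1 in 4 alternative settings (up to 0.08). Ugt3a1 was reduced to 5.47% of its control mean, Ugt3a2 to 24.5%, Ugt2b1 to 30.7% and Ugt2b36 to 43.8%, and these 4 genes lay lower by 2-fold or more. Ugt1a6a, Ugt2b5 and Ugt2a3 stood at 53.9%, 59.6% and 62.4%. Ugt2b35, Ugt2b34 and Ugt1a1 stood at 84.4%, 90.2% and 99.0%. For 7 of the 10 genes every dKO liver lay below every control, and for the other 3 the groups overlapped. Among all 20055 genes tested, 16.9% had every dKO liver below every control. The median log2 change was -0.81 over the 10 genes and 0.03 over all genes tested. Every gene of the 10 had a mean above the minimum for testing, and the fewest reads of any of them in a liver were 75. Without control 4 the log2 changes ran from -4.27 for Ugt3a1 to -0.05 for Ugt1a1.

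**Figure D1:**
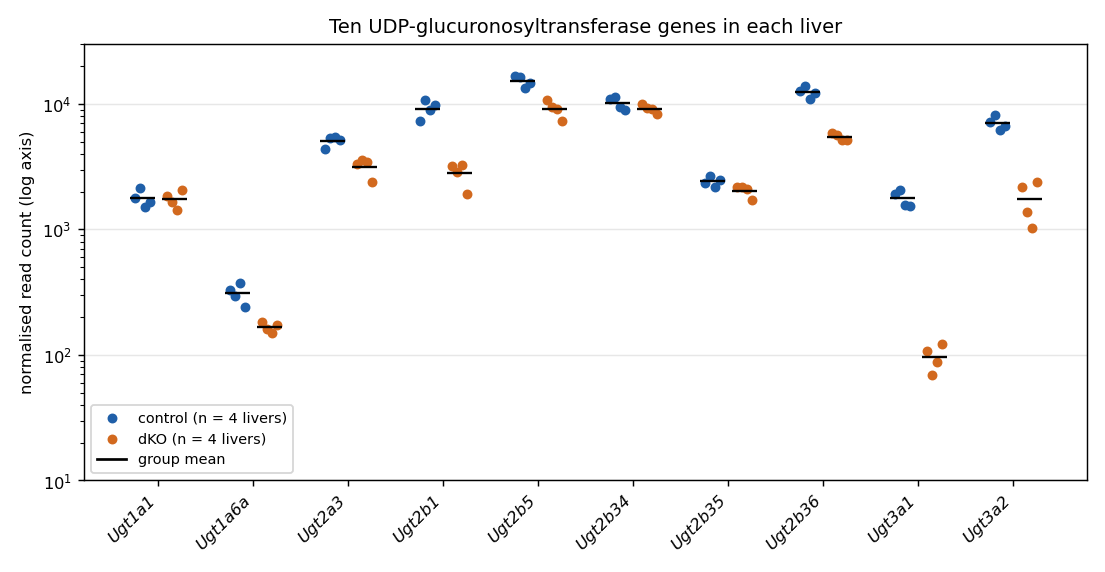
Normalised read count (log axis) of the 10 UGT genes in each of 4 control (blue) and 4 dKO livers (orange), with a bar at each group mean. The gap between the groups is widest for Ugt3a1, while the points of Ugt1a1, Ugt2b34 and Ugt2b35 overlap.

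Together the 10 genes summed to 65472 ± 5513 normalised read counts in controls, and to 35510 ± 3366 in dKO livers, 54.2% of the control mean. This was 0.367% ± 0.0256 of all values in controls and 0.210% ± 0.0191 in dKO livers. The make-up of the sum shifted with it. The share of Ugt2b34 went from 15.5% ± 1.07 to 25.8% ± 0.445, that of Ugt1a1 from 2.69% ± 0.183 to 4.98% ± 1.10 and that of Ugt2b35 from 3.69% ± 0.143 to 5.75% ± 0.292. Shares of Ugt2b36 (19.0% ± 0.484 to 15.4% ± 0.725), Ugt2b1 (14.0% ± 1.97 to 7.88% ± 1.39), Ugt3a2 (10.8% ± 0.347 to 4.94% ± 2.04) and Ugt3a1 (2.70% ± 0.226 to 0.277% ± 0.0832) shrank. The shares of Ugt2b5, Ugt2a3 and Ugt1a6a overlapped between the groups. These shares are of read counts, which longer transcripts raise, so each is compared between groups and not between genes.

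The UGT3A genes were the most reduced. They are neighbours on mouse chromosome 15 (build GRCm38, the assembly mm10 names), on the plus strand: Ugt3a1 (ENSMUSG00000072664) at chr15:9276888-9315032 and Ugt3a2 (ENSMUSG00000049152) at chr15:9335550-9370955. Ugt3a1 had normalised read counts of 1923, 2062, 1578 and 1538 in controls 1 to 4, and of 108, 69.3, 88.6 and 123 in dKO livers 1 to 4. The lowest control stood far above the highest dKO liver, and the coefficient of variation was 14.5% in controls and 23.9% in dKO livers. In reads, 6728 in the 4 controls stood against 418 in the 4 dKO livers. The group means were 1775 ± 258 and 97.1 ± 23.2, an 18.3-fold difference, and the log2 change was -4.21 (SE 0.16).

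Ugt3a2 had normalised read counts of 7215, 8112, 6237 and 6714 in controls and of 2180.2, 1364, 1022 and 2374 in dKO livers. All dKO values lay far below the controls, and they spread widely: the coefficient of variation was 37.3% in dKO livers, the highest of the 10 genes, against 11.3% in controls. The mean fell from 7070 ± 801 to 1735 ± 646 (4.07-fold), a log2 change of -2.10 (SE 0.22). Within each library Ugt3a1 amounted to 25.1% ± 1.57 of the Ugt3a2 value in controls and to 5.97% ± 1.80 in dKO livers, so the pair did not shrink in proportion. In dKO livers 1 and 4 both Ugt3a genes were above their values in dKO livers 2 and 3. The coding sequences of the pair, 1572 bases each, are 93.26% identical, and the longest run they share is 90 bases, so some reads of the pair may have been exchanged or left out.

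The UGT2 genes form a cluster on chromosome 5 of GRCm38. Their products conjugate steroids, bile acids and many drugs. The listed genes lie in this order: Ugt2b34 (ENSMUSG00000029260, minus strand) at chr5:86889767-86906937, Ugt2b1 (ENSMUSG00000035836, minus) at chr5:86916638-86926530, Ugt2b35 (ENSMUSG00000035811, plus) at chr5:87000860-87013275, Ugt2b36 (ENSMUSG00000070704, minus) at chr5:87065927-87092555, Ugt2b5 (ENSMUSG00000054630, minus) at chr5:87124960-87140318 and Ugt2a3 (ENSMUSG00000035780, minus) at chr5:87324972-87337195. The 3.25-fold lower Ugt2b1 sits between Ugt2b34 and Ugt2b35, whose groups overlapped, and the next 3 listed genes, Ugt2b36, Ugt2b5 and Ugt2a3, each had every dKO liver below every control.

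Ugt2b1 had normalised read counts of 7262, 10664, 8864 and 9840.05 in controls and of 3198, 2881, 3275 and 1903 in dKO livers. The highest dKO liver reached less than the lowest control by a wide margin, and dKO 4 was the lowest. The means were 9157 ± 1462 and 2814 ± 631, with a log2 change of -1.72 (SE 0.16).

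Ugt2b36 had normalised read counts of 12607, 14002, 10953.5 and 12147 in controls and of 5883, 5661, 5118 and 5134 in dKO livers. Both groups were tight, and the dKO coefficient of variation of 7.04% was the lowest of the 10 genes. Its mean went from 12427 ± 1260 to 5449 ± 384, 2.28-fold lower, and the log2 change was -1.19 (SE 0.09).

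Ugt2b5, per kilobase the most abundant of the UGT2 and UGT3A genes listed, had normalised read counts of 16634, 16488, 13481 and 14728 in controls and of 10666.5, 9516, 9072 and 7315 in dKO livers. Each dKO liver lay below each control. Its log2 change was -0.75 (SE 0.12), and that of Ugt2a3 was -0.69 (SE 0.12). Ugt2a3 had normalised read counts of 4366, 5369.9, 5458 and 5128 in controls and of 3301, 3546, 3433 and 2398 in dKO livers. The dKO values of Ugt2a3 were again below the controls, with dKO 4 apart at the low end.

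Ugt2b34 had normalised read counts of 10911, 11252, 9428 and 8942 in controls and of 10001, 9272, 9036 and 8262 in dKO livers. Here 3 dKO livers lay above the lowest control, and the log2 change was -0.15 (SE 0.09). Ugt2b35 had 2349, 2673, 2173 and 2475 in controls and 2187, 2159.7, 2097 and 1721 in dKO livers, and only dKO 1 reached into the control range. Its log2 change was -0.25 (SE 0.09).

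Divided by the kilobases of annotated exon, the order of levels among the UGT2 and UGT3A genes changed with the group. In controls Ugt2b5 led with 8252 ± 812 per kilobase, followed by Ugt2b36 (6036 ± 612), Ugt2b1 (3559 ± 568), Ugt2a3 (2399.9 ± 234), Ugt2b34 (2350.1 ± 260.02), Ugt3a2 (2279 ± 258), Ugt2b35 (719.7 ± 62.6) and Ugt3a1 (665 ± 96.6). The ranges of Ugt2a3 and Ugt2b34, of Ugt2b34 and Ugt3a2, and of Ugt2b35 and Ugt3a1 overlapped. In dKO livers Ugt2b5 (4921 ± 749) and Ugt2b36 (2646 ± 186) still led, and Ugt2b34 (2120.4 ± 166) came next, followed by Ugt2a3 (1497 ± 248), Ugt2b1 (1094 ± 245), Ugt2b35 (608 ± 64.6), Ugt3a2 (559 ± 208) and Ugt3a1 (36.4 ± 8.70). The ranges of Ugt2a3 and Ugt2b1 and those of Ugt2b35 and Ugt3a2 overlapped there. Ugt2b1 thus went from the third place to the fifth. Exon length is that of all annotated transcripts, and the transcripts in use may be shorter.

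The livers did not rank alike for all 10 genes. Among dKO livers, dKO 4 was the lowest for 5 genes, all of the UGT2 cluster (Ugt2a3, Ugt2b1, Ugt2b5, Ugt2b34 and Ugt2b35), and the highest for 3 genes, Ugt1a1, Ugt3a1 and Ugt3a2. The liver of dKO 1 was the highest for 5 genes and the lowest for 0. Among controls, control 2 was the highest for 7 genes, and control 4 for 0. Coefficients of variation over the controls ran from 8.70% for Ugt2b35 to 18.0% for Ugt1a6a.

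The Ugt1a genes share 1 locus on the plus strand of chromosome 1. Ugt1a1 (ENSMUSG00000089960), whose product is the liver enzyme of bilirubin conjugation, spans chr1:88211959-88218997, and Ugt1a6a (ENSMUSG00000054545), of a subfamily known for conjugating simple phenols, spans chr1:88134809-88218997. Ugt1a1 had normalised read counts of 1788, 2137, 1506 and 1643 in controls and of 1859, 1661, 1415 and 2072 in dKO livers. The groups overlapped over nearly their whole range, the means were 1769 ± 271 and 1752 ± 280.4, and the log2 change was -0.02 (SE 0.13). Ugt1a6a had 329, 295, 373 and 241 in controls and 184, 161, 149 and 174 in dKO livers. Every dKO liver lay below every control for Ugt1a6a, and the log2 change was -0.88 (SE 0.14).

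Reads in the shared exons of the Ugt1a locus cannot be assigned to 1 gene. Of the annotated exon bases, 58.9% of Ugt1a1 and 50.3% of Ugt1a6a also belong to another Ugt1a gene. The sources used here do not give how the counting treated such reads. Ugt1a8, with 59.2% of its exon bases shared, had 7 reads over the controls and 3 over the dKO livers. Ugt1a1 had 6693 and 7532, so shared reads were not counted for every Ugt1a gene. They may have been left out or counted for some of the genes, and values of all Ugt1a genes are uncertain to that extent. Per kilobase of unshared exon, Ugt1a1 was at 1937 in controls and 1919 in dKO livers, and Ugt1a6a at 145 and 78.0.

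Of the other 10 UGT genes, for which the difference was tested, 3 were lower in dKO livers, 0 were higher and 7 passed the test in neither direction (limma, adjusted p below 0.05). Among all genes tested, 17.0% were called lower and 21.2% higher. Ugt1a9, of the Ugt1a locus, had normalised read counts of 709, 829, 564 and 1033 in controls and of 248, 254, 181 and 183 in dKO livers. Its 2 groups were well apart, and the log2 change was -1.83 (SE 0.18, limma adjusted p = 5.82e-06). Relative to Ugt1a1 in the same library, Ugt1a9 fell from 44.7% ± 12.1 to 12.6% ± 2.71. Ugt2b38 went from 492 ± 69.6 to 268 ± 46.3, with a limma adjusted p of 0.000303 and a log2 change of -0.88 (SE 0.14). Its coding sequence is 97.05% identical to that of Ugt2b5, with 444 bases in 1 identical run, so reads of this pair may have been exchanged or left out.

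The groups overlapped for Ugt1a6b, with 621 ± 57.1 for controls and 514 ± 32.2 for dKO livers. It passed the test at a limma adjusted p of 0.0315, and its log2 change was -0.27 (SE 0.09). That call was lost in 5 of the fits that left out 1 liver, those without controls 1, 2 or 3 or dKO 1 or 4, with an adjusted p of up to 0.0921. The coding sequence of Ugt1a6b is 98.37% identical to that of Ugt1a6a.

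Ugt1a5 had normalised read counts of 275, 353, 645 and 590.1 in controls and of 633, 674, 645 and 603 in dKO livers. Controls 1 and 2 were low and controls 3 and 4 were at the dKO level, and the difference did not pass the test (log2 change 0.54, SE 0.22, limma adjusted p = 0.0695). It was called higher without control 3 (adjusted p = 0.0166) and without control 4 (0.04). Ugt1a7c, at 24.4 ± 8.29 and 37.2 ± 6.55, had a limma adjusted p of 0.0987, and of 0.0253 without control 4. With adjustment edgeR and DESeq2, like limma, called 0 of the other UGT genes higher. At an unadjusted limma p below 0.05, 2 were higher, Ugt1a5 and Ugt1a7c, and 4 lower, Ugt1a9, Ugt2b38, Ugt1a6b and Ugt1a10.

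The remaining 5 genes were at low levels. Ugt2b37 was at 58.7 ± 14.0 and 74.2 ± 31.8 (limma adjusted p = 0.553), and Ugt1a10 at 13.7 ± 5.43 and 5.67 ± 3.76 (0.0704). Ugt1a2, Ugt1a8 and Ugt8a, the last the enzyme of galactosylceramide synthesis in myelin-forming cells, had between 3 and 13 reads over the 4 livers of a group.

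**Figure D2:**
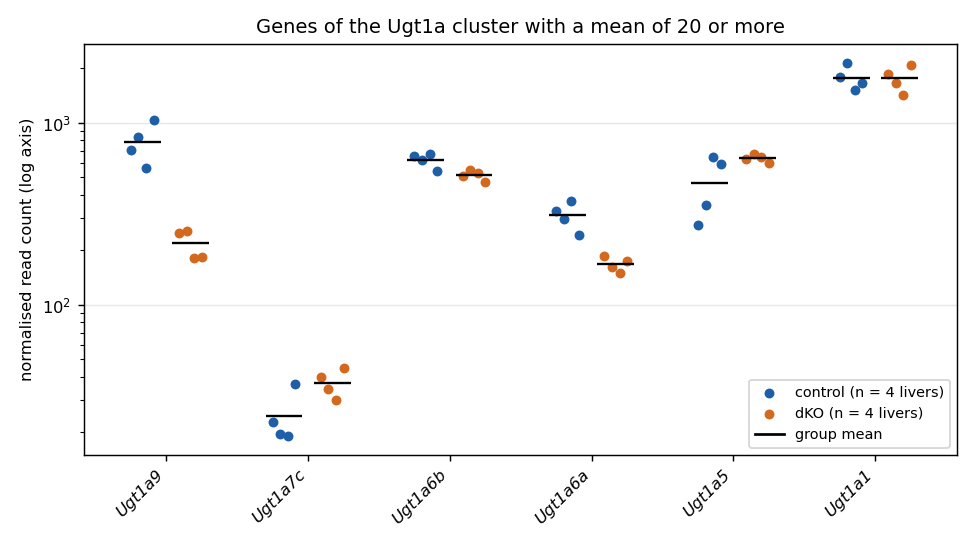
Normalised read count (log axis) of 6 genes of the Ugt1a locus in each control (blue) and dKO liver (orange), in the order of their first exons, with a bar at each group mean. Ugt1a9 and Ugt1a6a were lower in every dKO liver, Ugt1a1 overlapped, and the controls of Ugt1a5 split into a low and a high pair.

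Genes beside the UGT clusters moved in both directions: of 18 protein-coding genes, up to 3 on each side of a cluster and Dnajb3 inside the Ugt1a locus, 3 were higher, 3 lower and 12 neither. Each direction thus held 16.7% of the neighbours, against 21.2% higher and 17.0% lower among all genes tested. Several of the 12 had only 1 to 20 reads over the livers of a group, so that a call was hardly possible for them. Beside the Ugt1a locus Dgkd was higher (log2 change 0.54, limma adjusted p = 0.000526) and Usp40 lower (-0.52, limma adjusted p = 0.00109). Mroh2a was called higher (0.43, limma adjusted p = 0.0297), a call lost in 7 of 17 alternatives, and Hjurp passed in neither direction. Beside the UGT2 cluster lie sulfotransferase genes, whose products join sulfate to much the same kinds of molecules. Sult1b1 was lower (-1.46, limma adjusted p = 9.94e-06), whereas Sult1d1 (-0.21, limma adjusted p = 0.0968), Sult1e1 and Ythdc1 passed in neither direction. Beside the UGT3A pair Nadk2 was lower (-0.44, limma adjusted p = 0.00152) and Lmbrd2 was at -0.01. Il7r, at 27.2 ± 13.1 in dKO livers, was called higher (1.22, limma adjusted p = 0.0417), a call that was also lost in 7 of 17 alternatives. None of these neighbours with a mean of 10 or more had a log2 change as low as that of either Ugt3a gene.

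**Figure D3:**
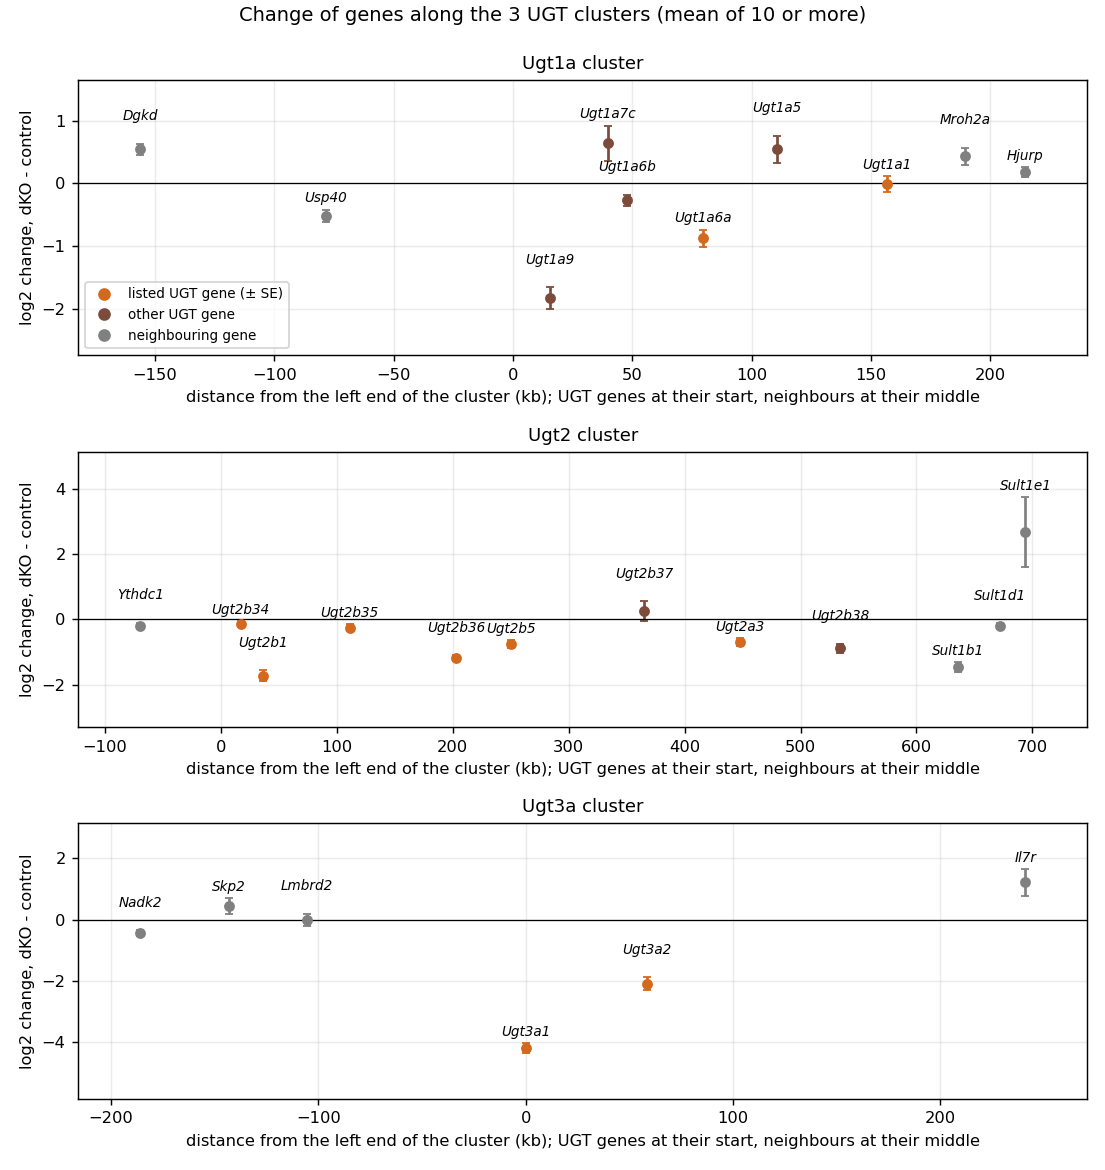
Log2 change (dKO minus control, bars ± SE) against distance in kilobases from the left end of each UGT cluster, for listed UGT genes (orange), other UGT genes (brown) and neighbouring genes (grey) with a mean of 10 or more. Ugt3a1 and Ugt3a2 lie at -4.21 and -2.10, below their neighbours, and the UGT2 cluster mixes values near 0 with values below -1.

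The genes closest to Ugt3a1 in pattern were sought among 12555 protein-coding genes, by the Euclidean distance between log2 profiles over the 8 livers, each centred on its own mean. The nearest was Sdr9c7 (distance 0.783), a member of the short-chain dehydrogenase family, at 950.03 ± 183 in controls and 57.8 ± 5.75 in dKO livers. Susd4 (0.958) was at 461 ± 78.3 and 30.0 ± 9.66. Cyp7b1 (0.998), an oxysterol and steroid 7-alpha-hydroxylase, was at 1913 ± 566 and 141 ± 29.7. These genes were picked for their likeness, so no test is attached to them.

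Sequences read by ZFP36 proteins centre on the letters TATTTAT in the 3′ UTR. The motif was searched on the sense strand of all annotated protein-coding transcripts of a gene (GENCODE M21), and a gene counted if any of them held it. The sites and 3′ UTR lengths given are those of the transcript with the longest 3′ UTR. The motif occurred in 3 of the 10 listed genes, and in 30.12% of 15424 tested genes with a 3′ UTR. The sites are shown with 9 flanking bases on each side, 25 bases in all, 5′ to 3′, with the motif in capitals, because the deleted proteins bind this element.
Ugt2b5, base 47 of a 3′ UTR of 253 bases: cctcattctTATTTATgaaccacct
Ugt2b35, base 114 of 1737: gtgtgtataTATTTATatatatata
Ugt2b35, base 1497 of 1737: agtatgtgcTATTTATaacgggtac
Ugt2b34, base 786 of 2972: atagttgagTATTTATtcaacgatg
Ugt2b34, base 2293 of 2972: ctttaacttTATTTATtgcagactt
Ugt2b34, base 2918 of 2972: tgccctctaTATTTATgctgtgact

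Of the 3 genes with the motif, Ugt2b34 and Ugt2b35 had overlapping groups and Ugt2b5 was at 59.6% of its control mean. Ugt3a1, Ugt3a2, Ugt2b1 and Ugt2b36, the 4 genes with the largest reductions, held no match in 3′ UTRs of 547, 612, 951 and 264 bases. The shorter letters ATTTA were present in all 10, from 2 to 10 times each, and in 69.05% of the tested genes with a 3′ UTR, counting those inside the longer motif. All Ugt1a genes begin their 3′ UTR with the same 573 bases, in which TATTTAT is absent. Ugt1a9, Ugt1a6a, Ugt1a1, Ugt1a5 and Ugt1a2 end there, so transcripts at 27.7%, 53.9%, 99.0%, 137% and 103% of their control means carry the same annotated 3′ UTR. The groups of Ugt1a5 overlapped and its difference did not pass the test, and the value of Ugt1a2 is from few reads. Reads in the shared exons, this 3′ UTR among them, may have been left out or counted for some of the genes. All of these values are uncertain to that extent.

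Promoter sequences were taken from RefSeq (GRCm38.p6), as windows of 250 bases before to 50 bases after each start site. Of the 10 listed genes 9 had an entry, and Ugt3a2 did not. For 4 genes of the UGT2 cluster, Ugt2b36, Ugt2b5, Ugt2b37 and Ugt2b38, the longest run common to the 130 bases before each start site was sought. It has 22 bases and lies close to the start site. Of the 32851 promoters 4 hold it (0.01218%), the same 4 genes. Since the run was taken from these genes and is long, that count does not mark it as a special element. The 130 bases before the start site are shown, 5′ to 3′ along each gene, for the pair among the 10 listed genes, with the run in capitals. A match of letters is a description and does not show that a factor binds there.
Ugt2b36, chr5:87092556-87092685, minus strand: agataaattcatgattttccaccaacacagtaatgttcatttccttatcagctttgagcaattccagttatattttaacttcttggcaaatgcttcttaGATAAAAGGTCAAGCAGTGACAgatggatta
Ugt2b5, chr5:87140341-87140470, minus strand: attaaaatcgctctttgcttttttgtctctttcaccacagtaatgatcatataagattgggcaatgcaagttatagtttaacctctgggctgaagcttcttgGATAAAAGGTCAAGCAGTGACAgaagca

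The 4 genes with this run did not share 1 value: Ugt2b36 was at 43.8% of its control mean, Ugt2b38 at 54.5%, Ugt2b5 at 59.6% and Ugt2b37 at 126%, the last with overlapping groups and a low level. Coding sequences of Ugt2b36 and Ugt2b5 are 88.45% identical, with a longest shared run of 52 bases.

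Around the enzymes, 63 genes were read from lists: 30 metabolic and transport genes, and 33 transcription factors linked to UGT genes and targets of such factors. The 30 cover the sugar donor, glucuronide cleavage and transport, bilirubin formation and free glucuronate. Of the 30 genes, 33.3% were higher and 40.0% lower. The lower ones were 5 of transport, 1 of bilirubin formation and 6 of free glucuronate, with 0 of the donor and 0 of cleavage. Among all genes tested, 21.2% were called higher and 17.0% lower. Of all 63, 16 were higher (25.4%), 27 lower (42.9%) and 20 neither, with a median log2 change of -0.23, and 15 of the 27 lower genes were factors or their targets. Of 6 genes of the supply or use of UDP-glucuronic acid, the sugar donor, 3 were higher and 3 passed in neither direction, with a median log2 change of 0.44. Uxs1, whose product uses up UDP-glucuronic acid, was among the latter (0.16, limma adjusted p = 0.384). Ugdh, which oxidises UDP-glucose to UDP-glucuronic acid, rose from 4510.2 ± 328 to 7346 ± 1372 (log2 change 0.69, limma adjusted p = 0.000677). Slc35d1, a carrier of UDP-glucuronic acid into the endoplasmic reticulum, rose by 0.75 on the log2 scale (limma adjusted p = 1.7e-05). Pgm2, a phosphoglucomutase, rose by 1.48 (limma adjusted p = 7.96e-06), from a level of only 89.2 ± 9.23 in controls. The far more abundant Pgm1, at 3843 ± 136 in controls and 3348 ± 309 in dKO livers, and Ugp2 passed in neither direction. Gusb, the lysosomal beta-glucuronidase that cleaves glucuronides, rose from 542 ± 50.9 to 1136 ± 97.1 (limma adjusted p = 2.42e-06). Abhd10, which also cleaves glucuronides, was higher (log2 change 0.43, limma adjusted p = 0.0260), a call lost in 4 of 17 alternatives, with an adjusted p of 0.309 after quantile normalization.

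Of 10 transporters of glucuronides and other organic anions, 3 were higher and 5 lower, with a median log2 change of -0.39. The higher ones encode export pumps: Abcc4 (1.29, limma adjusted p = 0.000146), Abcc5 (1.03, limma adjusted p = 0.000874) and Abcc1 (1.05, limma adjusted p = 0.0172). The groups of Abcc1 overlapped. The fallen genes with the smallest p were Slco1a1, from 5080 ± 453 to 50.0 ± 15.4 (log2 change -6.71, limma adjusted p = 1.05e-09), Abcg2 (-1.20, limma adjusted p = 6.86e-06), Slco1b2 (49.5% of the control mean, limma adjusted p = 2.25e-05) and Slco1a4 (-1.33, limma adjusted p = 2.58e-05). Slco genes encode uptake carriers, and Abcg2 an export pump. Abcc2 and Abcc3, pumps that carry glucuronides into bile and blood, passed in neither direction. Among 4 genes of bilirubin formation Hmox1, which opens the haem ring, was higher (1.39, limma adjusted p = 0.000108) and Blvrb lower (-0.50, limma adjusted p = 0.00377). Of 8 genes that handle free glucuronate, including the way to ascorbate, 6 were lower and 1 higher (median -0.63). The smallest p-values were those of Rgn (-1.01, limma adjusted p = 2.55e-06), Gulo (-1.02, limma adjusted p = 2.1e-05), Sord (-0.69, limma adjusted p = 5.07e-05) and Xylb (-0.56, limma adjusted p = 0.00129).

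Of 19 transcription factors and cofactors linked to UGT genes, 7 were lower, 1 higher and 11 neither, with a median log2 change of -0.19. Among the lower ones were Foxa1 (-0.74, limma adjusted p = 7.01e-05), Nr1i3, the xenobiotic receptor CAR (-1.55, limma adjusted p = 9.51e-05), and Nr3c1, the glucocorticoid receptor (-0.39, limma adjusted p = 0.00162). Of 14 classical target genes of such factors outside the UGT family 8 were lower and 5 higher, with a median of -0.94. Cyp4a10 (-5.38, limma adjusted p = 9.27e-07), a target of PPAR-alpha, Cyp1a2 (-2.14, limma adjusted p = 1.64e-06), a target of the aryl hydrocarbon receptor, and Gclc (-1.12, limma adjusted p = 1.96e-06) were lower. Srxn1 was higher (1.07, limma adjusted p = 4.95e-06). Gclc and Srxn1 are targets of NRF2, and the other 3 NRF2 targets listed, Nqo1, Gclm and Txnrd1, were also higher.

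**Figure D4:**
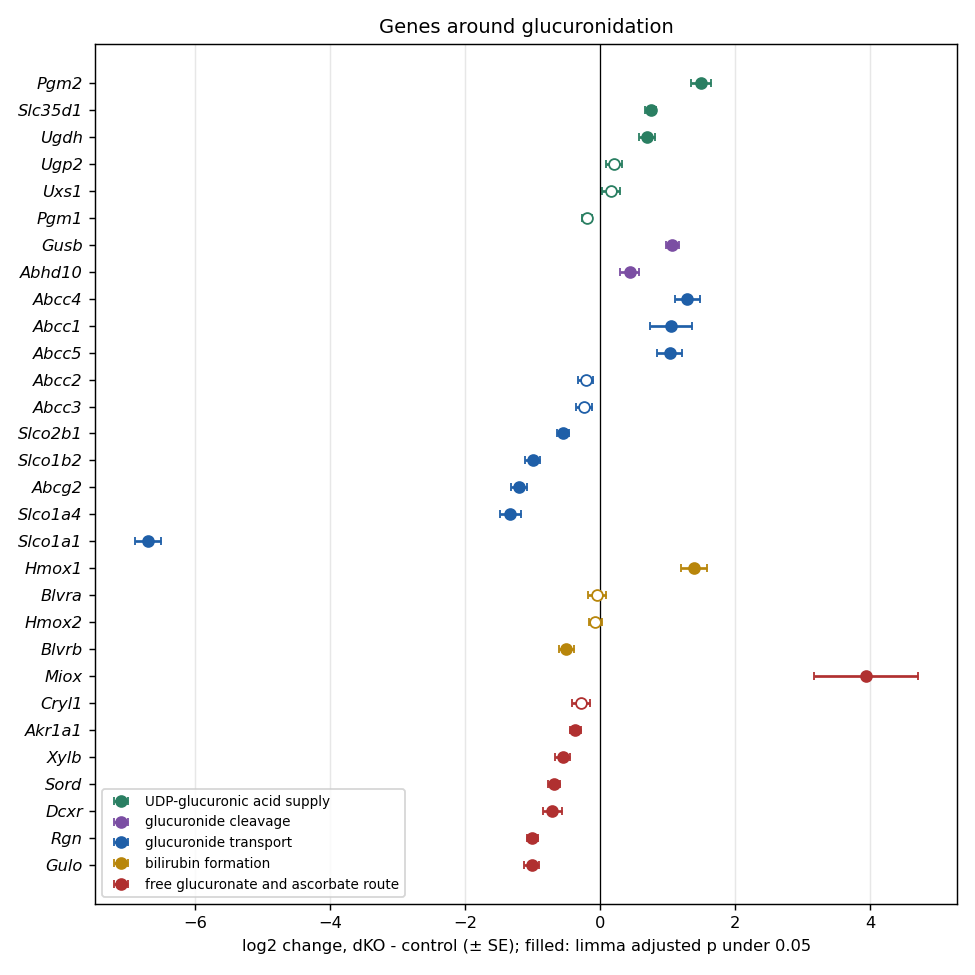
Log2 change (dKO minus control, bars ± SE, 4 livers per group) of genes around glucuronidation. They supply or use UDP-glucuronic acid (Uxs1 uses it), cleave or carry glucuronides, form bilirubin or handle free glucuronate. Filled points have a limma adjusted p below 0.05. The supply and cleavage genes that passed lie above 0, and most of the glucuronate genes lie below it.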

How the data were processed

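RNA from 8 mouse livers was sequenced, 1 library per animal. The tools named in the submitters' processing notes are fastp, HISAT2 (2.0.5), DESeq2 and featureCounts (1.5.0-p3), with build mm10. The sources used here do not give the settings, annotation or strand, so overlapping, antisense or near-identical genes may share reads. FPKM, the unit in the name of the deposited table, is not what it holds. The design had allowed for either FPKM or counts scaled by a size factor. The values are a signal: reads per gene scaled by the authors with 1 size factor per library and not by length. In each library they are multiples of the value of 1 read (100% within 0.001 of a whole read), so reads could be recovered. Read counts set the precision, and no interval beyond the SE is given.

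Values were taken as log2(value + 0.5) for 20055 genes with a mean of 0.5 or more and tested with limma 3.58.1 (R 4.3.3; group only, eBayes with trend, 2-sided, Benjamini-Hochberg, threshold 0.05). Alternatives were other pseudocounts and filters, quantile and TMM scaling, edgeR 4.0.16 and DESeq2 1.42.0 on recovered reads, the mouse number as a block, and leaving out each liver.

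The UGT genes and all lists were chosen with earlier results of these data known. The text names the 10 genes, the other UGT genes, Zfp36l1 and Zfp36l2, and up to 4 called genes per list with the smallest adjusted p. Some further genes of the lists are named beside these. Also named are the 3 genes most like the UGT gene with the largest fall (none rose). The 3 nearest protein-coding genes on each side of each cluster follow, and neighbours with few reads are only counted. Tmprss11b, beside the UGT2 cluster, was not analysed here. Gene positions, 3′ UTRs and coding sequences are from GENCODE M21 (GRCm38), and promoters from RefSeq. Of the table's identifiers 21796 matched a symbol. The 10 genes were matched by symbol, and Tf, a hepatocyte marker, was not analysed here. One gene that the naming rule gives is not reported here.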

Additional observations from a re-analysis of the deposited data

Results flagged for a closer look

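Within a group of 4 livers, a value was singled out when its gap to the nearest other liver, divided by the group's range, exceeded Dixon's 95% critical value. This was so in 6 of 132 groups (66 genes), and chance gives about 1 in 20. None of the 10 listed UGT genes was among them. Of the other UGT genes, Ugt1a2 was high in control 3 at 4.21 normalised read counts, a level of few reads. Among neighbours of the clusters, Trpm8 was high in control 2 at 2.05, Tmprss11e was high in dKO 2 at 0.925, the value of a single read, and Sult1e1 was high in control 2 at 78.0. Without control 2 Sult1e1 was called higher in dKO livers. Of the targeted genes, Zfp36l1 was highest among dKO livers in dKO 4 at 267, and Zfp36l2 was lowest among controls in control 3 at 997.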

How the results depend on the processing

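No call of Zfp36l1 or Zfp36l2, and no count over the pathway lists or all genes, moved by more than 1.5 times under the alternatives run. The count of other UGT genes called higher was 0 to 2 when 1 liver was left out: 1 without control 3 and 2 without control 4. Quantile normalization moved the median log2 change of all genes from 0.03 to -0.08 and the calls from 4244 higher and 3410 lower to 3638 and 4312. Under it Ugt2b34 stood at 0.13 in place of -0.15, Ugt2b5 at -0.51 and Ugt2b36 at -0.95. Ugt1a1 changed sign in 4 settings (-0.10 to 0.08); the other 8 genes kept their sign, Ugt3a1 between -4.33 and -4.06. Among single genes, calls were lost for Ugt1a6b in 5 settings, Abhd10 in 4 and Mroh2a and Il7r in 7 each, and Ugt1a5, Ugt1a10 and Sult1e1 gained a call in 2 settings each and Ugt1a7c and Hjurp in 1; the cause was not tested. Correlations between the deviations of same-numbered mice were small and of both signs (r = 0.0324, -0.0693, 0.0375 and 0.0769). Those of mice with different numbers ran from -0.1226 to 0.0578. The labels do not say whether the numbers pair the animals, and such correlations cannot exclude it. With the mouse number as a replicate block, 4021 genes were called higher and 3112 lower, 0 and 3 of the other UGT genes, and 16 and 26 of the pathway genes. Zfp36l1 and Zfp36l2 kept adjusted p-values of 2.18e-07 and 0.000625 with the block. Depth limits what can be said of the 4 other UGT genes with 3 reads or fewer in some liver, Ugt1a2, Ugt1a8, Ugt1a10 and Ugt8a, since 3 reads in a library correspond to 2.55 to 3.43 normalised read counts.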
